A study of Mus musculus with 2 samples.

Results

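Mesoderm cells and endothelial cells of the mouse yolk sac were compared gene by gene, with the ligand and receptor genes that pair between them as the members of interest. Both groups of cells were cut from the deposited matrices by marker limits. The mesoderm side held 126 cells and the endothelium side 102 cells, so 228 of the 1817 cells in all entered the comparison. A curated list of 282 ligand and receptor pairs from 26 families was read across the 2 sides, and 25 pairs had their ligand higher on one side and their receptor higher on the other. These 25 pairs are made of 41 genes, 22 ligands and 19 receptors, out of 119 ligand and 109 receptor genes in the list.

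The study sequenced single cells of yolk sac at E8.75 on the 10x platform, with the cells of each preparation tagged by CellPlex oligonucleotides before they were pooled. All cells share the genotype Ttr-Cre/+; R26lsl-rtTA-EGFP/+, so there is no wild-type group here, and no treatment was compared. Ttr-Cre acts where the Ttr gene is active, which in the yolk sac is visceral endoderm, and neither mesoderm nor endothelium is its target tissue. The design text names 3 yolk sacs from 3 embryos, and the 3 matrices, 1 for each tag, are called tagged samples 1, 2 and 3 below.

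Signals between yolk sac mesoderm and endothelium are a classic example of paracrine signalling. Mesoderm lies beside the first blood vessels, secretes factors such as VEGF-A and lays down matrix, while endothelial cells carry the matching receptor tyrosine kinases and integrins and send signals of their own, such as PDGF-B, which is known for recruiting mural cells. A ligand and receptor pair is a statement about 2 transcripts only: protein, secretion and binding were not measured.

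Mesoderm cells were chosen by Hand1, Vcan and Foxf1 making up at least 0.03% of the UMIs (unique molecular identifiers, each a counted transcript molecule), at least 3 UMIs of Foxf1 and Vcan, at most 1 of Cdh5 and fewer than 5 of the contractile genes Ttn, Myh6 and Tnnt2. Endothelial cells were chosen by at least 2 UMIs of Cdh5, at least 0.04% of UMIs in Cdh5, Ctla2a and Plvap, and at most 3 UMIs of Foxf1 and Hand1. Every cell also had at least 500 genes, at most 10% mitochondrial UMIs, under 3% of UMIs in 7 globin genes and under 0.3% in Ttr, Apob and Apom. These genes chose the cells, so their levels are no finding: Hand1 averaged 444 ± 32.9 CPM (UMIs scaled to a common depth, SD over n = 3 tagged samples) in the mesoderm side against 4.34 ± 2.96 in the endothelium side, Foxf1 149 ± 13.2 against 18.2 ± 4.23, Cdh5 0.768 ± 0.840 against 333 ± 45.5 and Plvap 1.95 ± 1.65 against 303 ± 76.0. The 3 mesoderm cells nearest the percent limit held 0.03%, 0.0351% and 0.0356%, and the 3 cells that failed this limit alone held 0.0279%, 0.0239% and 0.0139%. For the endothelium side the nearest 3 cells inside held 0.0418%, 0.0426% and 0.0429%, and the nearest 3 of the 8 outside held 0.0382%, 0.0293% and 0.0249%. Any gene expressed along with the selected genes must also differ between cells cut this way. The calls below therefore say how evenly a difference appeared over the 3 tagged samples, and nothing about why the cells differ.

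The raw counts of all cells of a side were added up within each tagged sample. The mesoderm sums held 31, 47 and 48 cells with 1184469, 1554948 and 1656500 UMIs, and the endothelium sums 33, 34 and 35 cells with 1522081, 1250525 and 1016132 UMIs. The 3 matrices shared 0 barcodes. Each of the 3 tagged samples held cells of both sexes on both sides, by at least 4 UMIs of Xist with at most 1 Y-linked UMI, or at least 2 UMIs of 4 Y-linked genes with at most 1 of Xist: from 9 to 17 mesoderm cells and 11 to 15 endothelial cells with Xist, and from 13 to 24 and 5 to 14 with Y-linked transcripts. The tags could therefore not be matched to single embryos, and p-values measure the spread between tagged samples. Outside the selected genes, all 13 endothelial markers tested were higher in the endothelium side (summed over these 13, 1931 to 2079 CPM against 138 to 157 CPM), and all 11 mesoderm markers in the mesoderm side (summed over these 11, 1472 to 1978 against 160.0 to 173 CPM). Kdr, Tek, Eng and Tie1 among the former and Pdgfra, Pdgfrb, Postn, Bmp4, Col1a1 and Col3a1 among the latter are also members below. None of 8 visceral endoderm markers tested passed the threshold, and 0 had an unadjusted p under 0.05, by edgeR or by DESeq2 (the 11 such genes outside the limits summed to 271 to 303 CPM in the mesoderm side and 223 to 431 in the endothelium side). Of 14 blood progenitor markers, 4 were tested and all 4, Runx1, Itga2b, Spi1 and Pf4, were higher in the endothelium side (summed 119 to 289.6 CPM against 9.61 to 19.1), whereas Ptprc, Gp9 and Cd52 were at 0 there. Blood genes were counted in each cell as raw UMIs summed over Ptprc, Itga2b, Spi1, Gata1 and Pf4. This sum was not scaled by depth, so a deeper cell reaches a limit more easily. In the endothelium side 44 of 102 cells carried at least 3 UMIs of blood genes, 15, 15 and 14 by tagged sample. Values without these cells are given for the named genes that lost their call and for most of those whose difference moved by over 1.5 times. Without these cells the endothelium sums kept 18, 19 and 21 of 33, 34 and 35 cells but 40.6% of their UMIs. Raw UMIs given for that setting are therefore not at the same depth. The part of the 44 cells with blood genes in the other results was not tested. The 11 trophoblast genes other than Hand1 summed to 1179 to 1384 CPM in the mesoderm side and 38.4 to 42.8 in the endothelium side. Most of that was Krt18, while Prl3d1, Prl2c2 and Tpbpa were at 0 on both sides.

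Of the 119 ligand genes, 54 passed the low-count filter: 32 were higher in the mesoderm side, 15 in the endothelium side and 7 were not called (edgeR's quasi-likelihood test, Benjamini-Hochberg adjusted p under 0.05). Over all 8324 genes tested, 17.0% were higher in the mesoderm side and 19.4% in the endothelium side. Of the 109 receptor genes, 69 passed the filter, with 34 higher in mesoderm, 22 in endothelium and 13 not called. The median log2 difference, mesoderm minus endothelium, was 1.75 for the ligands and 0.70 for the receptors, against 0.01 for all genes. Log2 differences and gene differences given without another unit all follow this sign, so a positive value is higher in mesoderm and a negative one in endothelium. The 33 secreted signalling ligands tested split 22 to mesoderm, 8 to endothelium and 3 not called (median 2.32), the 14 matrix ligands 8, 3 and 3 (median 0.80), and the 7 membrane-bound ligands 2, 4 and 1 (median -2.41). The 3 sums of one side lay wholly above the 3 of the other for 44 of 54 ligands and 56 of 69 receptors, and for 47.8% of all genes. The remaining 65 ligands and 40 receptors were not tested. Of them 36 and 11 had at most 3 UMIs on each side, counts that include 20 and 5 with no UMI on either side. A gene of low level can pass the filter through its higher side alone, so the tested members lean to genes that differ. Of 123 ligand and receptor genes tested, 7 had no UMI on one side, against 76 of all 8324 genes. The lists were also chosen with earlier results known. These shares and medians, and those of the families and lists below, are therefore descriptions only.

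With both genes past the threshold and at 10 CPM or more on the higher side, 15 pairs ran from a mesoderm ligand to an endothelial receptor and 10 from an endothelial ligand to a mesoderm receptor. Both genes of a pair were higher in mesoderm in 24 pairs and in endothelium in 7, and in 37 of the 93 pairs with both genes tested at least 1 gene was not called. By the same 2 conditions 16.7% of all tested genes counted as mesoderm genes and 19.3% as endothelial genes. Of the mesoderm ligands, 18 had no listed receptor higher in endothelium, and 7 endothelial ligands had none higher in mesoderm. Levels in CPM were compared between the sides for 1 gene at a time, and not between genes.

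**Figure D1:**
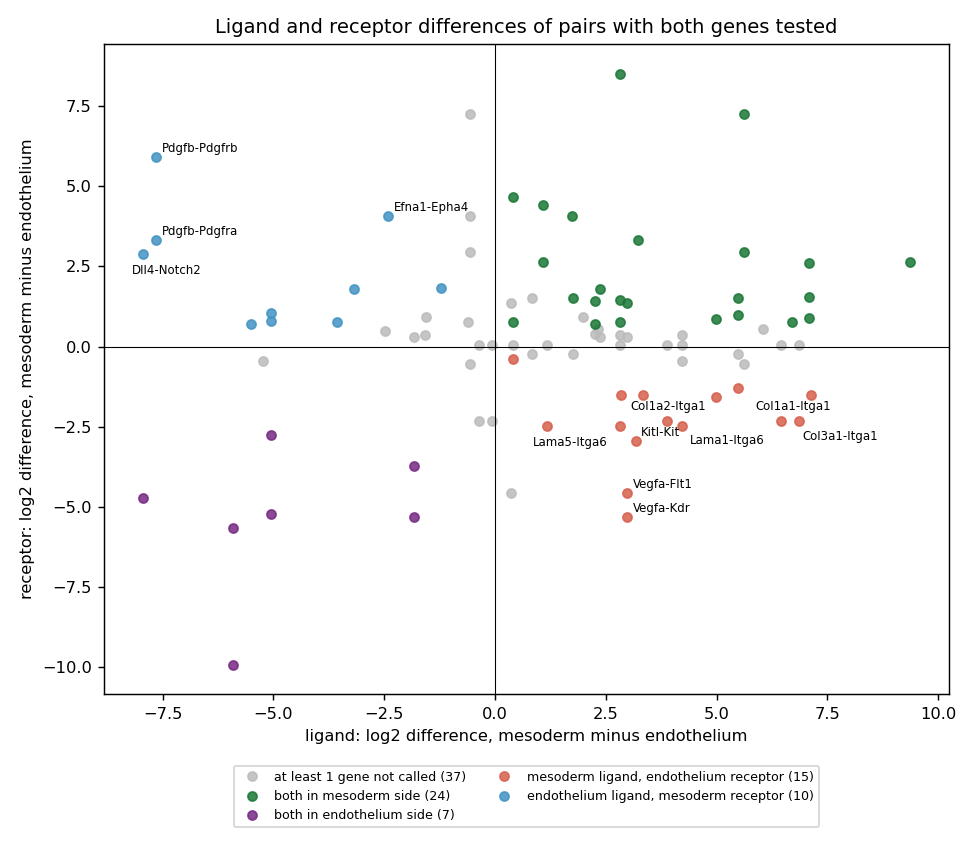
Each point is 1 of the 93 ligand and receptor pairs with both genes tested. The horizontal axis gives the log2 difference (mesoderm minus endothelium) of the ligand and the vertical axis that of the receptor, and the 12 pairs ranked first by the smaller of the 2 differences are named. The 15 pairs with a mesoderm ligand and endothelial receptor lie at the lower right, the 10 with an endothelial ligand and mesoderm receptor at the upper left.

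The VEGF pathway gave 2 of the leading pairs from mesoderm to endothelium. Vegfa encodes the main growth factor for endothelial cells and measured 95.7, 97.4 and 82.8 CPM in the mesoderm side of tagged samples 1, 2 and 3 and 13.3, 14.0 and 6.12 CPM in the endothelium side. Its lowest mesoderm sum was several times its highest endothelium sum, and the log2 difference was 2.98 ± 0.22 SE with edgeR adjusted p = 4.64e-08. Kdr encodes VEGFR2, the receptor that carries most of the signal in endothelium, and measured 9.99, 14.7 and 10.5 CPM in the mesoderm side and 556, 469.8 and 402 CPM in the endothelium side. The log2 difference was -5.32 ± 0.18 SE with edgeR adjusted p = 1.27e-11. Flt1 encodes VEGFR1, which binds VEGF-A tightly and limits its action, and measured 23.3, 4.49 and 8.16 CPM in the mesoderm side and 273, 277 and 252 CPM in the endothelium side, with a log2 difference of -4.58 ± 0.27 SE with edgeR adjusted p = 4.84e-09. The mesoderm sum of tagged sample 1 was the high one for Flt1, and without that sample the difference was -5.34. At an equal depth of 10000 UMIs per cell, Kdr was found in 96.7% of endothelial cells (88 of 91) and 11.4% of mesoderm cells (14 of 123), against 98.0% and 25.4% at full depth. In erythroid cells of the same matrices, which should lack it, Kdr was found in 0.62% of cells at the equal depth (1 of 160) and 6.25% at full depth, with a median of 49504.5 UMIs per erythroid cell and 34951.5 per mesoderm cell. Of the 10 VEGF family genes 8 were tested, 2 higher in mesoderm, 4 in endothelium and 2 not called. Over all genes tested the shares were 17.0% in mesoderm and 19.4% in endothelium. Vegfc (log2 difference -1.82) and its receptor Flt4 (log2 difference -3.71) were both higher in endothelium, and the co-receptor Nrp1 was higher in mesoderm (log2 difference 1.37).

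Kitl and Kit formed the leading cytokine pair. Kitl encodes stem cell factor and measured 71.6, 136 and 135 CPM in the mesoderm side and 14.0, 10.7 and 13.2 CPM in the endothelium side, a log2 difference of 3.18 ± 0.27 SE with edgeR adjusted p = 2.4e-07. Kit, its receptor tyrosine kinase, is known from blood stem and progenitor cells and from endothelium that forms blood. It measured 5.83, 7.69 and 1.75 CPM in the mesoderm side and 39.1, 30.6 and 48.9 CPM in the endothelium side, a log2 difference of -2.96 ± 0.36 SE with edgeR adjusted p = 1.01e-05, with no overlap between the sides for either gene. The value for Kit was -3.64 without tagged sample 2 and -2.34 without tagged sample 3. Blood progenitor markers were higher in the endothelium side too (119 to 289.6 CPM in sum), and the part of blood cells in the Kit result was not tested. Without the 44 endothelial cells that carried blood genes, Kit fell below the filter for testing. It had 58 UMIs left in the endothelium side against 22 in the mesoderm side, at unequal depth. The endothelium sums then held 1539436 UMIs in place of 3788738. Scaled by total UMIs, Kit was at 34.4, 10.2 and 62.9 CPM in the endothelium side and 5.91, 7.72 and 1.81 CPM in the mesoderm side. Kitl kept a difference of 3.02 without these cells (edgeR adjusted p = 4.02e-06). At 10000 UMIs per cell Kit was found in 23.1% of endothelial cells (21 of 91), 3.25% of mesoderm cells (4 of 123) and 3.12% of erythroid cells (5 of 160), and at full depth in 55.9%, 11.1% and 12.5%.

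PDGF signalling gave the 2 highest-ranked pairs, in the opposite direction. Pdgfb, whose product draws mural cells to vessels, had 0 UMIs in the mesoderm side of all 3 tagged samples and 17.4, 19.8 and 18.4 CPM in the endothelium side, which makes it at least 25.9-fold higher in endothelium (against a limit of 3 counts over the 3 mesoderm sums; edgeR adjusted p = 1.98e-06). Its receptor Pdgfrb, the textbook marker of mural cells and their precursors, measured 40.8, 44.2 and 30.9 CPM in the mesoderm side and 0.698, 0.826 and 0 CPM in the endothelium side. The ratio of mesoderm to endothelium counts for Pdgfrb, 171 UMIs against 2, was 73.7 (95% interval 20.1 to 613, counting error only), with edgeR adjusted p = 1.02e-07. Pdgfra, the receptor of broader mesenchyme, measured 33.3, 19.2 and 9.91 CPM in the mesoderm side and 2.79, 0.826 and 2.04 CPM in the endothelium side, and its log2 difference was 3.31 ± 0.57 SE with edgeR adjusted p = 0.000299. The 3 mesoderm sums of Pdgfra spread more than those of Pdgfrb, yet the lowest stayed above the highest endothelium sum. Pdgfa, a ligand for Pdgfra, was higher in mesoderm itself (49.1, 32.7 and 67.0 CPM against 5.58, 1.65 and 9.18, a log2 difference of 3.22 ± 0.40 SE with edgeR adjusted p = 1.11e-05). All 4 PDGF family genes tested of 6 were thus called, Pdgfb alone on the endothelial side. Over all genes tested 17.0% were called higher in mesoderm and 19.4% in endothelium. At 10000 UMIs per cell Pdgfrb was found in 30.9% of mesoderm cells (38 of 123) and in 0 of 91 endothelial cells, which allows up to 3.30% of cells with a UMI at that depth, and at full depth in 69.8% and 1.96%. In erythroid cells it was found in 0 of 160 at the equal depth and in 3.12% at full depth. Without the cells carrying blood genes Pdgfra was not tested (87 UMIs against 3), and under stricter marker limits (0.06% and 0.08% in place of 0.03% and 0.04%, with 0 UMIs of the other side's selected genes) neither Pdgfb (0 UMIs against 16) nor Pdgfra (60 against 4) was.

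Of these receptors, Pdgfra, Kit and Kdr are neighbours on mouse chromosome 5 and were called on different sides. In GRCm38, Pdgfra lies at 75152292 to 75198215, plus strand, Kit at 75574916 to 75656722, plus strand and Kdr at 75932827 to 75978458, minus strand. They span 826167 bases with gaps of 376700 and 276104 bases, and 0 other protein-coding genes of the annotation start between them. Pdgfra was higher in mesoderm and the next 2 genes in endothelium. The promoter windows of the 3 genes are shown because adjacent genes differed in direction. They are RefSeq windows on GRCm38.p6, from 250 bases before to 50 bases after the annotated start, printed 5′ to 3′ on the gene's strand with CG pairs in capitals.
Pdgfra promoter, chr5:75152001-75152300, plus strand: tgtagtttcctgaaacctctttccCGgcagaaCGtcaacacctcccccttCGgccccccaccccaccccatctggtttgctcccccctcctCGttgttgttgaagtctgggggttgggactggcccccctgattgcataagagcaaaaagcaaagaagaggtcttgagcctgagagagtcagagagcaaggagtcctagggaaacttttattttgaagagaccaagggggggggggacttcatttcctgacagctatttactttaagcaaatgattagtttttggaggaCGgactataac
Kit promoter, chr5:75574737-75575036, plus strand: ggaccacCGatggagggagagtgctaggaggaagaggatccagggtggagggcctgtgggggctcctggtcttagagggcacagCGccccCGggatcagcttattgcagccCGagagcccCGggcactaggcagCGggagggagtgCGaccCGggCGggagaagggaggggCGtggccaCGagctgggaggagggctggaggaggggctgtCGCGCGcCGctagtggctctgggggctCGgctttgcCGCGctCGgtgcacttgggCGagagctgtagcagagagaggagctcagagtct
Kdr promoter, chr5:75978406-75978705, minus strand: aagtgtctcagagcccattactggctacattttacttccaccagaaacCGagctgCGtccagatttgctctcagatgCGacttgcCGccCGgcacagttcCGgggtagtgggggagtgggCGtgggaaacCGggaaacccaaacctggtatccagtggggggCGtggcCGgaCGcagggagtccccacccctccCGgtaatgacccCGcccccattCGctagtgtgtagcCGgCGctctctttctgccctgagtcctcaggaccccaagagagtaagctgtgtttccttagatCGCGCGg

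The Pdgfra window held 5 CG pairs, Kit 20 and Kdr 19, against a median of 8 over 27025 promoter windows of the same length. The ETS-type heptamers CCGGAAG and CAGGAAG, searched on both strands, were in none of these 3 windows. Over the list, a heptamer was found in 2 of 17 windows of receptors higher in endothelium (11.8%), 6 of 29 of receptors higher in mesoderm (20.7%), 2 of 9 of endothelial ligands (22.2%) and 7 of 22 of mesoderm ligands (31.8%), and in 6256 of all 27025 windows (23.1%). Of the 41 pair genes 27 had a window. A match describes letters only.

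**Figure D2:**
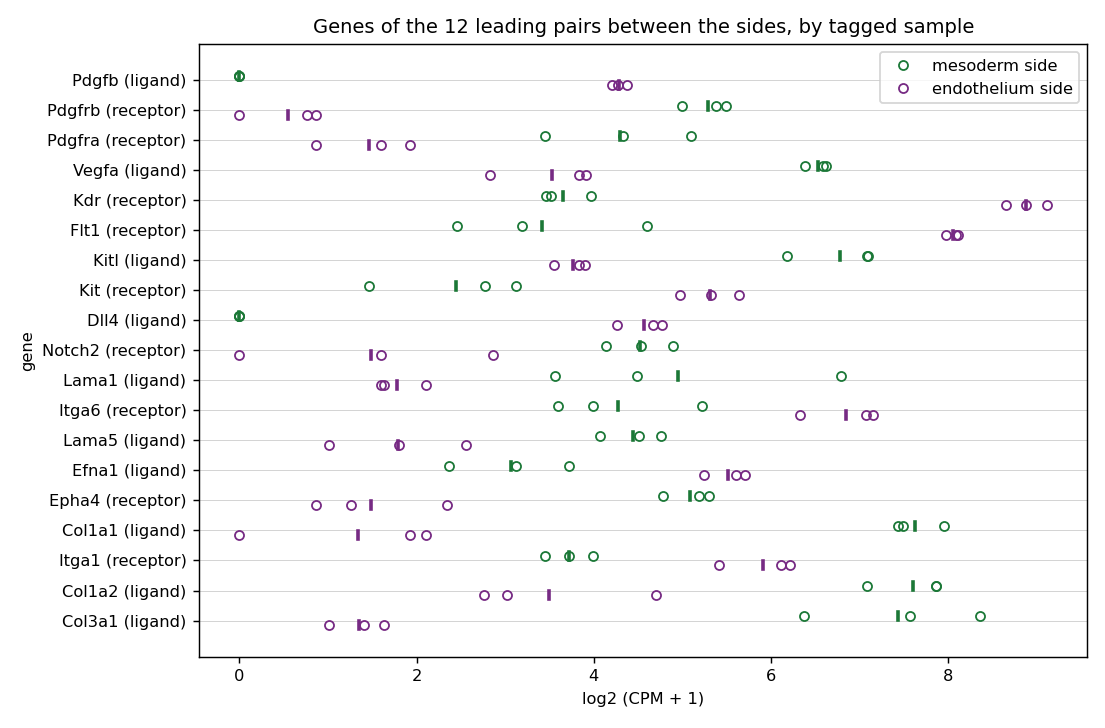
The genes of the 12 leading pairs, with log2(CPM + 1) on the horizontal axis, 1 circle for each tagged sample and side and a bar at the mean of each side. For every gene drawn the 3 circles of one side lie apart from the 3 of the other, and Pdgfb and Dll4 lie at 0 in all 3 mesoderm sums. The genes were chosen by called and large differences, so this separation is no separate result. Over all genes tested 47.8% had no overlap.

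Among Notch genes, Dll4 and Notch2 paired from endothelium to mesoderm. Dll4, the ligand of arterial and sprouting endothelium, had 0 UMIs in the mesoderm side and 18.1, 26.4 and 24.5 CPM in the endothelium side, at least 31.7-fold higher in endothelium (edgeR adjusted p = 1.42e-06). Notch2 measured 16.6, 28.8 and 22.1 CPM in the mesoderm side and 6.28, 0 and 2.04 CPM in the endothelium side, a log2 difference of 2.88 ± 0.51 SE with edgeR adjusted p = 0.000374. It was 4.67 without tagged sample 1, which held most of the endothelial UMIs of Notch2, and 2.09 without tagged sample 2. Under stricter marker limits it was 1.5 with an edgeR adjusted p of 0.0516. Notch1, the receptor through which Dll4 acts within endothelium, was higher in endothelium (2.50, 3.20 and 4.08 CPM against 92.1, 92.5 and 83.6, a log2 difference of -4.71 ± 0.23 SE with edgeR adjusted p = 7.33e-10), so Dll4 also paired on its own side.

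The angiopoietin family was split by role: 3 ligands were higher in mesoderm and Tek, which encodes their receptor TIE2, in endothelium. Angpt1, the main activating ligand, measured 29.1, 46.1 and 33.8 CPM in the mesoderm side and 0, 6.61 and 10.2 CPM in the endothelium side, with a log2 difference of 2.84 ± 0.48 SE with edgeR adjusted p = 0.00026 that was 3.60 without tagged sample 3. Without the endothelial cells that carried blood genes Angpt1 had 1 endothelial UMI in place of 18, against 165 in mesoderm, and kept its call (edgeR adjusted p = 7.67e-06). Angpt2, known as a context-dependent antagonist, measured 9.16, 17.3 and 9.32 CPM in the mesoderm side and 0, 2.48 and 1.02 CPM in the endothelium side (log2 difference 3.34 ± 0.63 SE with edgeR adjusted p = 0.000603, and 4.18 without tagged sample 2, where Angpt2-Tek no longer met the pair conditions). Angpt4 had 11.7, 11.5 and 15.2 CPM in the mesoderm side and 0 UMIs in the endothelium side, at least 16.7-fold higher in mesoderm (edgeR adjusted p = 1.82e-05). Tek itself measured 41.6, 37.2 and 50.1 CPM in the mesoderm side and 108, 135 and 128 CPM in the endothelium side, a log2 difference of -1.51 ± 0.15 SE with edgeR adjusted p = 1.68e-06, smaller than that of Kdr or Flt1. Tek was also found in mesoderm cells: at 10000 UMIs per cell Tek was found in 31.7% of mesoderm cells (39 of 123), 76.9% of endothelial cells (70 of 91), 2.04% of visceral endoderm cells (1 of 49) and 0.62% of erythroid cells (1 of 160), and at full depth in 69.0%, 93.1%, 4.0% and 5.0%. The median depth was 34951.5 UMIs in mesoderm cells, 35455.5 in endothelial, 52990.0 in visceral endoderm and 49504.5 in erythroid cells. Tie1, the partner of TIE2, had 2 UMIs in mesoderm against 190, a ratio of 110.0 (95% interval 30.1 to 917, counting error only), and the phosphatase Ptprb, which acts on TIE2, had a log2 difference of -4.91 ± 0.41 SE with edgeR adjusted p = 1.85e-07, or -5.79 without tagged sample 2.

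Matrix ligands and integrins made up 8 of the 25 pairs. The laminin chains Lama1, Lama4 and Lama5, parts of basement membrane, were higher in mesoderm, and the laminin receptor chain Itga6 in endothelium. Itga6 measured 15.0, 36.5 and 11.1 CPM in the mesoderm side and 79.6, 141 and 134 CPM in the endothelium side, a log2 difference of -2.47 ± 0.32 SE with edgeR adjusted p = 1.8e-05. Lama1 measured 10.8, 109.6 and 21.6 CPM in the mesoderm side and 2.09, 3.30 and 2.04 CPM in the endothelium side, with tagged sample 2 far above the other mesoderm sums. Its log2 difference of 4.23 ± 0.89 SE with edgeR adjusted p = 0.0015 became 2.94 without that sample. Lama5 measured 15.8, 21.8 and 26.2 CPM in the mesoderm side and 4.89, 2.48 and 1.02 CPM in the endothelium side (log2 difference 2.81 ± 0.41 SE with edgeR adjusted p = 6.65e-05; 3.66 without tagged sample 1, and 2 endothelial UMIs in place of 11 without the cells carrying blood genes), and Lama4, the laminin chain of vessel walls, 73.2, 71.8 and 61.2 CPM in the mesoderm side and 20.9, 32.2 and 39.8 CPM in the endothelium side (log2 difference 1.18 ± 0.20 SE with edgeR adjusted p = 0.000269). The fibrillar collagen genes Col1a1, Col1a2 and Col3a1 were paired with Itga1, the alpha chain of a collagen-binding integrin.

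Col1a1 measured 172, 248 and 180.1 CPM in the mesoderm side and 2.79, 3.30 and 0 CPM in the endothelium side (log2 difference 6.45 ± 0.32 SE with edgeR adjusted p = 9.1e-10). Col1a2 measured 135, 233 and 232 CPM in the mesoderm side and 25.1, 5.78 and 7.14 CPM in the endothelium side (log2 difference 3.88 ± 0.33 SE with edgeR adjusted p = 2.63e-07), with the endothelium sum of tagged sample 1 the high one, and a difference of 5.17 without it. Col3a1 measured 82.4, 329.9 and 190.0 CPM in the mesoderm side and 2.09, 1.65 and 1.02 CPM in the endothelium side (log2 difference 6.86 ± 0.64 SE with edgeR adjusted p = 6.13e-07; 7.48 without tagged sample 1). Itga1 measured 15.0, 12.2 and 9.91 CPM in the mesoderm side and 41.9, 73.5 and 68.3 CPM in the endothelium side (log2 difference -2.31 ± 0.26 SE with edgeR adjusted p = 4.67e-06), and its lowest endothelium sum was well above its highest mesoderm sum. Without the endothelial cells carrying blood genes Col1a1 had 2 endothelial UMIs in place of 8, Col3a1 1 in place of 6 and Col1a2 32 in place of 50, the last with a difference of 3.24. The other matrix pairs were small or thin. Edil3, whose product binds integrins of the alpha v kind, was higher in endothelium. It measured 0, 1.92 and 1.17 CPM in the mesoderm side and 20.9, 10.7 and 9.18 CPM in the endothelium side, a log2 difference of -3.56 ± 0.59 SE with edgeR adjusted p = 0.00019. The difference was -2.64 without tagged sample 1 and -4.37 without tagged sample 2. Itgav was higher in mesoderm by 0.76 ± 0.26 SE with edgeR adjusted p = 0.0327, a call lost without each of the 3 tagged samples (0.65, 0.75 and 0.87 without samples 1, 2 and 3; edgeR adjusted p = 0.129, 0.143 and 0.0974).

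Fn1 and Itga5 encode fibronectin and its main receptor chain. Fn1 measured 464, 689 and 576 CPM in the mesoderm side and 465, 436 and 398 CPM in the endothelium side, and the sides overlapped. Its log2 difference of 0.41 ± 0.12 SE with edgeR adjusted p = 0.0141 was lost without tagged sample 2 (0.25; edgeR adjusted p = 0.148) or 3 (0.35; 0.181). Itga5 differed by -0.38 ± 0.14 SE with edgeR adjusted p = 0.0476 and lost its call without any 1 of the tagged samples (-0.43, -0.39 and -0.34; edgeR adjusted p = 0.0682, 0.153 and 0.235). With the tagged sample as a block, Itga5 was at -0.38 with an edgeR adjusted p of 0.0521, so that the Fn1-Itga5 pair was the 1 of 25 lost there. Itgb1, the shared beta chain of these integrins, was not called (log2 difference 0.04), and neither were the basement membrane collagens Col4a1 (log2 difference -0.36) and Col4a2 (log2 difference -0.07). Col4a1 measured 194, 798 and 202 CPM in the mesoderm side and 418, 607 and 514 CPM in the endothelium side. Col4a2 measured 97.4, 348 and 106 CPM against 157, 240 and 187 CPM. For both, mesoderm was the higher side in tagged sample 2 only, and endothelium in tagged samples 1 and 3.

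In the TGF-beta family, Tgfb1 was higher in endothelium. This ligand measured 6.66, 5.12 and 2.33 CPM in the mesoderm side and 132, 137 and 191 CPM in the endothelium side, a log2 difference of -5.05 ± 0.27 SE with edgeR adjusted p = 1.51e-09. The co-receptor Tgfbr3 was higher in mesoderm by 1.06 ± 0.19 SE with edgeR adjusted p = 0.000399. Tgfbr1, the type I receptor, was higher in mesoderm by 0.80 ± 0.26 SE with edgeR adjusted p = 0.0235, but without tagged sample 1 or 2 the difference was 0.64 or 0.67 (edgeR adjusted p = 0.0878 and 0.157). Tgfbr2, the type II receptor, and Eng, an endothelial co-receptor, were higher in endothelium, with log2 differences of -2.75 ± 0.31 SE with edgeR adjusted p = 4.04e-06 and -5.23 ± 0.32 SE with edgeR adjusted p = 6.12e-09. The receptor chains of TGF-beta were therefore spread over both sides. Among BMP genes, Bmp5 had 184 UMIs in mesoderm against 3, a ratio of 52.9 (95% interval 17.8 to 259, counting error only) with edgeR adjusted p = 7.8e-08. Its listed receptor Acvr1, a BMP type I receptor, was higher in endothelium. It measured 7.49, 10.9 and 5.83 CPM in the mesoderm side and 13.3, 19.8 and 28.6 CPM in the endothelium side, a log2 difference of -1.30 ± 0.35 SE with edgeR adjusted p = 0.00905. This call was lost without tagged sample 3 (-0.81; edgeR adjusted p = 0.184). Bmp4 (log2 difference 1.77) and the type I receptor Bmpr1a (log2 difference 1.52) were both higher in mesoderm.

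Wnt family genes gave 1 pair in each direction. Wnt6 had 90 UMIs in mesoderm against 2, a ratio of 38.8 (95% interval 10.4 to 325, counting error only) with edgeR adjusted p = 1.11e-05, and 0 endothelial UMIs without the cells carrying blood genes. The Wnt co-receptor Lrp5 was higher in endothelium. It measured 3.33, 5.12 and 2.91 CPM in the mesoderm side and 11.2, 9.91 and 13.2 CPM in the endothelium side, a log2 difference of -1.56 ± 0.38 SE with edgeR adjusted p = 0.00433. Without tagged sample 3 it was at -1.28 (edgeR adjusted p = 0.072). R-spondin 3 amplifies Wnt signalling through LGR receptors. Rspo3 measured 82.4, 37.2 and 15.7 CPM in the mesoderm side and 165, 67.7 and 59.1 CPM in the endothelium side, so the sides overlapped, although within each tagged sample the endothelium sum was the higher. Its log2 difference was -1.22 ± 0.44 SE with edgeR adjusted p = 0.041, lost without tagged sample 2 (-1.36; edgeR adjusted p = 0.0515) or 3 (-1.01; 0.114). Lgr4 was higher in mesoderm, at 9.16, 16.0 and 18.1 CPM in the mesoderm side and 2.79, 7.43 and 2.04 CPM in the endothelium side, a log2 difference of 1.81 ± 0.44 SE with edgeR adjusted p = 0.00446. It was 2.45 without tagged sample 2, and lost its call without tagged sample 3 (1.36; edgeR adjusted p = 0.0971). Of 9 tested Wnt family genes 7 were higher in mesoderm, among them Wnt5a (log2 difference 7.08) and its receptor Ror2 (log2 difference 2.61). Over all genes tested the mesoderm share was 17.0%.

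Igf1, a growth factor, was higher in endothelium. It measured 4.16, 6.41 and 4.08 CPM in the mesoderm side and 179, 245 and 262 CPM in the endothelium side, a log2 difference of -5.51 ± 0.23 SE with edgeR adjusted p = 1.7e-10. Its receptor Igf1r was higher in mesoderm, at 89.9, 83.3 and 92.7 CPM in the mesoderm side and 63.5, 54.5 and 43.8 CPM in the endothelium side, a log2 difference of 0.70 ± 0.15 SE with edgeR adjusted p = 0.0022. The Igf1r difference was small and lost its call without tagged sample 3 (0.54; edgeR adjusted p = 0.0599). Igf2, the fetal growth factor, was higher in mesoderm (log2 difference 2.26). Efna1, a membrane-bound ephrin, was higher in endothelium. It measured 4.16, 7.69 and 12.2 CPM in the mesoderm side and 37.0, 51.2 and 47.9 CPM in the endothelium side, a log2 difference of -2.41 ± 0.29 SE with edgeR adjusted p = 1.07e-05. Its listed receptor Epha4 was higher in mesoderm. Its levels were 26.6, 38.4 and 35.5 CPM in the mesoderm side and 1.40, 0.826 and 4.08 CPM in the endothelium side, a log2 difference of 4.06 ± 0.40 SE with edgeR adjusted p = 1.16e-06. Without tagged sample 3 the difference was 4.75, without the cells carrying blood genes Epha4 had 1 endothelial UMI in place of 7, and the sides did not overlap for either gene. Sema6d, a membrane-bound semaphorin, was higher in endothelium. It measured 1.67, 6.41 and 0 CPM in the mesoderm side and 25.8, 28.9 and 20.4 CPM in the endothelium side, a log2 difference of -3.19 ± 0.52 SE with edgeR adjusted p = 0.000187, or -4.92 without tagged sample 2. The plexin receptor Plxna1 was higher in mesoderm, at 19.1, 19.9 and 24.5 CPM in the mesoderm side and 6.28, 8.26 and 3.06 CPM in the endothelium side, a log2 difference of 1.80 ± 0.33 SE with edgeR adjusted p = 0.000466.

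Leaving out the 44 endothelial cells with blood genes kept 18, 19 and 21 endothelial cells with 40.6% of the UMIs and removed 8 of the 25 pairs. Whether these pairs were lost with the blood genes or with the depth was not tested. Angpt2 (54 UMIs in mesoderm against 3), Edil3 (5 against 24), Lrp5 (17 against 16), Lgr4 (67 against 6), Kit and Pdgfra then had too few UMIs to be tested. These are raw counts out of 4395917 UMIs in mesoderm and 1539436 in endothelium. Scaled by total UMIs, Lrp5 was at 3.38, 5.14 and 3.02 CPM in the mesoderm side and 9.38, 5.11 and 15.7 CPM in the endothelium side. Itgav (0.39, edgeR adjusted p = 0.401), Tgfbr1 (0.84, edgeR adjusted p = 0.0528), Fn1 (0.23, edgeR adjusted p = 0.22) and Itga5 (-0.32, edgeR adjusted p = 0.251) were tested and not called. The pairs that remained were the other 17, among them both Vegfa pairs, Pdgfb-Pdgfrb, Dll4-Notch2, Efna1-Epha4, Igf1-Igf1r and the laminin and collagen pairs.

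**Figure D3:**
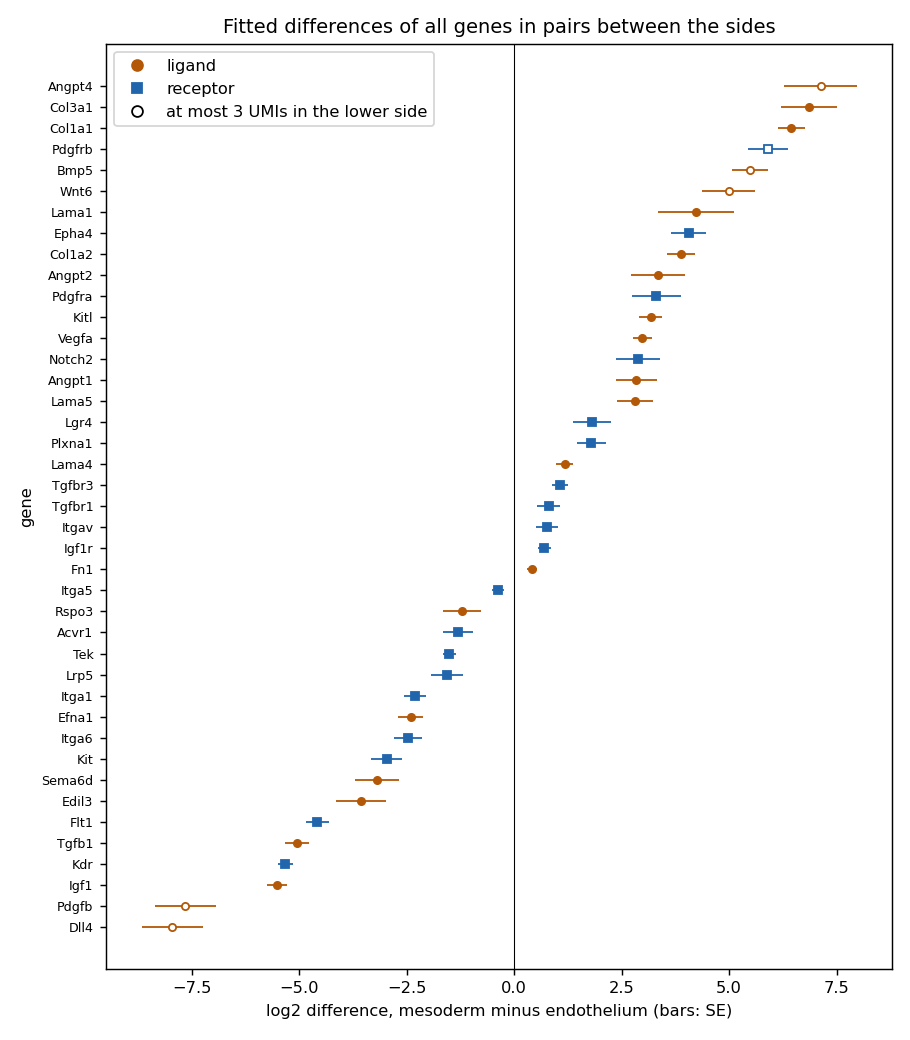
Fitted log2 differences (mesoderm minus endothelium) of all 41 genes of the pairs between the sides, with bars for the SE from 3 sums per side. Open symbols mark genes with at most 3 UMIs on the lower side, whose fitted value depends on the added prior count. Ligands and receptors lie on both sides of 0, from Fn1 and Itga5 next to 0 outwards.

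Pairs with both genes on the same side were led in mesoderm by the ephrin genes Efnb1-Ephb3 and Efnb1-Ephb2, by Pdgfa-Pdgfra, by Fgf3-Fgfr2 and by Ptn-Sdc4. Efnb1 measured 232, 295 and 298 CPM in the mesoderm side and 6.98, 5.78 and 3.06 CPM in the endothelium side (log2 difference 5.62 ± 0.21 SE with edgeR adjusted p = 5.08e-11), Ephb2 differed by 2.96 ± 0.40 SE with edgeR adjusted p = 3.16e-05 and Ephb3 was at least 18.1-fold higher in mesoderm (edgeR adjusted p = 1.11e-05). Fgfr2, the receptor for several FGFs, was at least 43.7-fold higher in mesoderm (edgeR adjusted p = 3.75e-07). Fgf3 measured 53.3, 41.6 and 9.91 CPM in the mesoderm side and 2.09, 9.91 and 2.04 CPM in the endothelium side, and the lowest mesoderm sum equalled the highest endothelium sum within rounding. Its log2 difference of 2.82 ± 0.62 SE with edgeR adjusted p = 0.00225 was 1.98 without tagged sample 1 and 3.76 without tagged sample 2, and without the cells carrying blood genes it was 1.71 with an edgeR adjusted p of 0.0808. Ptn, a heparin-binding factor, was at least 81.6-fold higher in mesoderm (edgeR adjusted p = 7.77e-05), with mesoderm sums of 14.2, 98.7 and 65.9 CPM. Sdc4, a heparan sulfate proteoglycan, differed by 2.62 ± 0.46 SE with edgeR adjusted p = 0.000364, or 4.26 without tagged sample 2 and 3.62 without the cells carrying blood genes. Efnb1 was at 6.31 without those cells.

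In endothelium the leading same-side pairs were Mmrn2 with Cd93 and with Clec14a, Tgfb1 with Eng and with Tgfbr2, and Dll4 with Notch1. Mmrn2, an endothelial matrix protein, had 165 UMIs in endothelium against 3, a ratio of 63.8 (95% interval 21.5 to 313, counting error only). Cd93, its transmembrane binding partner, was at least 125-fold higher in endothelium (edgeR adjusted p = 2.46e-08), and Clec14a differed by -5.66 ± 0.70 SE with edgeR adjusted p = 1.12e-05, with endothelium sums of 18.1, 90.8 and 78.5 CPM.

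Some ligands had no receptor called on the other side. Apln, the ligand of the apelin receptor, was higher in endothelium. It measured 0, 0.641 and 2.33 CPM in the mesoderm side and 47.5, 47.9 and 39.8 CPM in the endothelium side, a log2 difference of -5.24 ± 0.41 SE with edgeR adjusted p = 1.09e-07. Apela, a second ligand, had 77 UMIs in mesoderm against 3, a ratio of 22.1 (95% interval 7.29 to 110.0, counting error only). Their shared receptor Aplnr was not called (35.8, 35.9 and 44.9 CPM in the mesoderm side and 71.2, 48.7 and 35.7 CPM in the endothelium side, a log2 difference of -0.44 ± 0.22 SE with edgeR adjusted p = 0.141). Without tagged sample 3 Aplnr was called higher in endothelium, and Apela-Aplnr met the pair conditions. Edn1, singled out after its values were seen, had 0 UMIs in mesoderm and 48, 6 and 28 UMIs in the endothelium sums, at least 31.7-fold higher there, but did not pass the filter. Its receptors Ednra (log2 difference 3.61 ± 0.56 SE with edgeR adjusted p = 0.000104) and Ednrb (log2 difference 2.66 ± 0.32 SE with edgeR adjusted p = 1.04e-05) were both higher in mesoderm. With no filter, or without tagged sample 2, Edn1 met the pair conditions with both of them. Ptch1, the Hedgehog receptor and itself a target of the pathway, was higher in mesoderm. It measured 369.6, 429 and 398 CPM in the mesoderm side and 32.8, 27.2 and 17.3 CPM in the endothelium side, a log2 difference of 3.90 ± 0.16 SE with edgeR adjusted p = 9.09e-11. Of the ligands, Shh and Dhh had no UMI on either side and Ihh had 4 UMIs in all.

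Genes that respond to these pathways were read from a separate list. Of 31 pathway targets 20 were tested, with 6 higher in mesoderm, 8 in endothelium and 6 not called (median -0.30). For all genes tested the shares were 17.0% in mesoderm and 19.4% in endothelium (median 0.01). Hhip, a Hedgehog target, differed by 5.13 ± 0.53 SE with edgeR adjusted p = 2.11e-06, or 8.94 without tagged sample 2, which held all its endothelial UMIs. Without the cells carrying blood genes it had 1 endothelial UMI in place of 5. Nkd1, a Wnt target, differed by 4.31 ± 0.41 SE with edgeR adjusted p = 7.55e-07 and Smad7, a TGF-beta and BMP target, by 2.35 ± 0.28 SE with edgeR adjusted p = 7.63e-06. In endothelium, Dusp6, a target of MAP kinase signalling, differed by -4.14 ± 0.35 SE with edgeR adjusted p = 2.09e-07 and Id3, a BMP target, by -2.39 ± 0.16 SE with edgeR adjusted p = 1.66e-08. The Notch target Hey1 had 88 UMIs in endothelium against 3, a ratio of 34.0 (95% interval 11.3 to 168, counting error only). Targets of the BMP pathway thus included genes on both sides, Id1 (log2 difference -2.22) and Id3 in endothelium and Id2 (log2 difference 0.94) and Smad7 in mesoderm.

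Of 24 secreted or membrane-bound inhibitors and modulators 7 were tested, with 4 higher in mesoderm and 3 in endothelium (median 1.55). Dlk1, a non-canonical Notch ligand, differed by 5.03 ± 0.21 SE with edgeR adjusted p = 1.3e-10. Dkk3 had 75 UMIs in mesoderm against 3, a ratio of 21.5 (95% interval 7.10 to 107, counting error only), and Vasn, a TGF-beta binding protein, 70 against 2, a ratio of 30.2 (95% interval 8.04 to 254, counting error only). The 3 on the endothelial side were IGF-binding proteins. Igfbp4 measured 148, 159.5 and 126 CPM in the mesoderm side and 753, 815 and 879 CPM in the endothelium side (log2 difference -2.50 ± 0.10 SE with edgeR adjusted p = 1.42e-10). Igfbp3 overlapped between the sides (9.99, 16.0 and 19.8 CPM in the mesoderm side and 11.2, 71.8 and 52.0 CPM in the endothelium side, a log2 difference of -1.48 ± 0.47 SE with edgeR adjusted p = 0.0236) and lost its call without tagged sample 2 (-0.94; edgeR adjusted p = 0.213) or 3 (-1.61; 0.129). Igfbp5 rested on tagged sample 3 (7.68, 10.7 and 39.8 CPM in endothelium, a log2 difference of -1.74 ± 0.55 SE with edgeR adjusted p = 0.0227) and was at -0.74 without it (edgeR adjusted p = 0.283). Without the cells carrying blood genes Igfbp5 was not tested (21 UMIs in endothelium against 24), nor was Dkk3 (2 against 75). Scaled by total UMIs, Igfbp5 was then at 6.25, 15.3 and 21.6 CPM in endothelium and 5.07, 5.79 and 5.43 CPM in mesoderm. Of 21 coreceptors 14 were tested, 12 higher in mesoderm and 2, Tie1 and Ptprb, in endothelium (median 2.49). For all genes tested the shares were 17.0% in mesoderm and 19.4% in endothelium (median 0.01). Gpc3, a heparan sulfate glypican, differed by 2.54 ± 0.18 SE with edgeR adjusted p = 3.68e-08. Fzd2, a Wnt receptor, differed by 5.90 ± 0.38 SE with edgeR adjusted p = 1.14e-08, and by 7.45 and 5.19 without tagged samples 1 and 2. Without the cells carrying blood genes it had 1 endothelial UMI in place of 5. Sdc2, another proteoglycan, had 261 UMIs in mesoderm against 1, a ratio of 225 (95% interval 40 to 8919, counting error only).

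**Figure D4:**
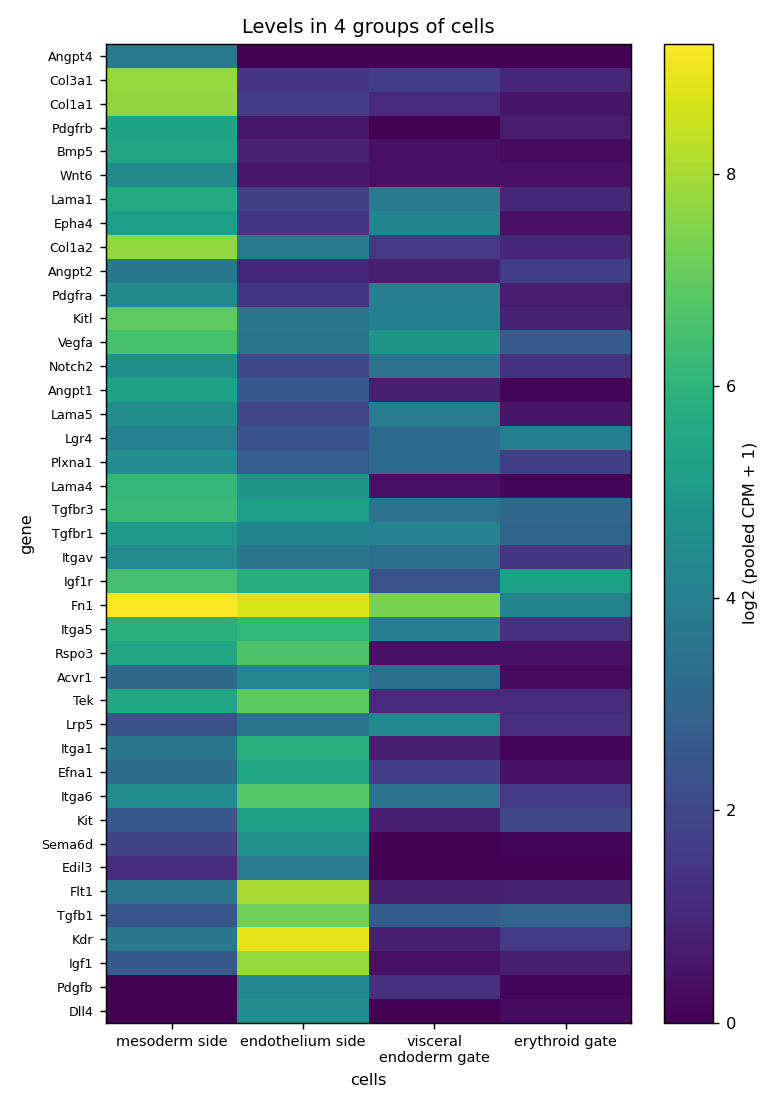
Levels of the 41 pair genes as log2(pooled CPM + 1), 1 column each for the mesoderm side, the endothelium side, 50 visceral endoderm cells and 160 erythroid cells of the same matrices, with all 3 tagged samples pooled. Rows follow the order of the fitted differences, and several mesoderm genes, such as Vegfa, Pdgfra and Epha4, are also seen in visceral endoderm.

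Levels in the other cells of the yolk sac show which of these genes are shared with visceral endoderm, the epithelium on the other face of the mesoderm. Pooled over tagged samples, Vegfa was at 93.0 CPM in mesoderm, 11.1 in endothelium, 28.6 in visceral endoderm and 5.48 in erythroid cells. Pdgfra was at 19.8, 1.85, 14.3 and 0.608 CPM in the same order, Epha4 at 34.8, 1.85, 16.9 and 0.365 CPM, and Lama1 at 50.3, 2.38, 12.8 and 1.10 CPM. Other mesoderm ligands were near 0 in visceral endoderm: Angpt1 was at 37.5 CPM in mesoderm and 0.753 in visceral endoderm, and Col1a1 at 205 and 1.13. Of the endothelial genes, Igf1 was at 214 CPM in endothelium and 0.376 in visceral endoderm, and Notch1 at 86.0 and 0. Igf1r was at 90.3 CPM in mesoderm, 52.8 in endothelium, 4.14 in visceral endoderm and 36.7 in erythroid cells. These other cells were gated by single marker sums and entered no test.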

How the data were processed

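Single-cell libraries of yolk sac cells were made on the 10x platform, per the labels' protocols. The authors deposited 3 matrices of raw UMI counts, 1 per tag, the output of Cell Ranger (version 6.1.2, per the file headers), with GRCm38 and mm10 named as genome builds per the submitters' processing notes. The gene table has 30970 gene rows, and 6 tag rows were left out of all totals.

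Cells were gated as described above, and the counts of each side were added up within a tagged sample, giving 6 sums. The sums were fitted with edgeR 4.0.16 (quasi-likelihood test, TMM scaling, filterByExpr, 8340 genes, two-sided, Benjamini-Hochberg adjustment over all of them, threshold 0.05) in R 4.3.3, and the genes used to gate cells were left out of every count, which leaves 8324. CPM values are TMM-scaled over tested genes, except in pooled and other-cell values, which are scaled by total UMIs alone. For a gene at 0 on one side the fold is a bound against 3 counts over that side's 3 sums. For 1 to 3 counts the ratio of counts is given with an exact 95% interval, which covers counting error only. The fit was also run on counts simulated with a common dispersion of 0.0116 for all genes. That run does not cover genes that vary more between the sums. Doublets were called with Scrublet in scanpy 1.11.5 (95 calls; 2 mesoderm and 1 endothelial cell) and kept. Gene coordinates are from GENCODE release 21 on GRCm38.

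The members and all lists were chosen with earlier results of these data known. Every gene of a pair between the sides is named. The text gives values per tagged sample for the 12 pairs ranked by the smaller of their 2 absolute log2 differences, 5 same-side pairs per side, the 3 smallest p per list and side for targets, inhibitors and coreceptors, and outside the lists the 5 largest differences per side at 20 CPM or more. Values per tagged sample of further pair genes were added after the values were seen, as were the genes named with their log2 difference only.

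Same-numbered sums come from the same tagged sample, so the numbers pair the sides. Their deviations from the side means correlated at 0.109, 0.057 and -0.009 over 8340 genes. Alternatives were DESeq2 1.42.0, library size scaling, no filter, leaving out each tagged sample, the tagged sample as a block, thinned sums, doublets left out, deeper cells, tighter limits and other gates.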

Additional observations from a re-analysis of the deposited data

How the results depend on the processing

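The number of pairs between the sides was 25 and ranged from 13 to 28 over the alternatives. With the tagged sample number as a replicate block there were 24 pairs, 15 became 14 from mesoderm to endothelium, and the 10 from endothelium to mesoderm stayed at 10 by count; of the named genes the block changed no call but that of Itga5. DESeq2 gave 21 pairs, library size scaling 24, no low-count filter 25, sums thinned to the smallest 19, cells of at least 20000 UMIs 24, doublet calls left out 24 and tighter globin and endoderm limits 25. With library size scaling and with no filter 23 pairs each were among the 25, and in the others all were. Leaving out tagged sample 1, 2 or 3 gave 28, 22 and 20 pairs, of which 22, 20 and 19 were among the 25. The genes higher in mesoderm side, 1415 in all, then ranged from 929 to 1355 (929 without sample 3).

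Endothelial cells without blood genes gave 17 pairs, with 6 in place of 10 from endothelium to mesoderm and 13 in place of 24 same-side mesoderm pairs. The stricter gate, which kept 10, 14 and 14 endothelial cells, gave 13 pairs. Lost there were the first-ranked pair Pdgfb-Pdgfrb, and Pdgfb-Pdgfra, Dll4-Notch2, Lama1-Itga6, Angpt2-Tek, Angpt4-Tek, Sema6d-Plxna1, Wnt6-Lrp5, Rspo3-Lgr4, Tgfb1-Tgfbr1, Edil3-Itgav and Fn1-Itga5. There, genes higher in mesoderm side numbered 869, ligand and receptor genes higher in mesoderm 42 in place of 66, targets, inhibitors and coreceptors higher in mesoderm 12 in place of 22, same-side mesoderm pairs 11 and pairs from endothelium to mesoderm 3. A level of at least 20 CPM gave 18 pairs, 6 of them from endothelium to mesoderm. The smaller counts of the last 3 alternatives come with fewer cells or a higher level; no further cause was tested.

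Of 82 named genes, 68 kept their direction and side of the threshold in every alternative that tested them, and 44 of 1032 values lost the call with the same direction. Of the 41 genes in pairs, 30 kept their call in every alternative that tested them. A gene left untested by an alternative was not counted as a lost call. Low counts limit several pairs, leading ones among them. Edil3, Lrp5, Lgr4, Pdgfra, Pdgfb, Angpt2, Angpt4, Lama1, Wnt6 and Kit fell below the filter in 1 or more alternatives. No value reversed.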

Other observations

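Outside all the lists, the genes with the largest differences at 20 CPM or more were mostly absent from the lower side. Higher in mesoderm were Cbln1, a secreted synapse organiser (at least 81.3-fold; 50.8, 64.1 and 71.1 CPM in tagged samples 1, 2 and 3), Ptges, a prostaglandin E synthase (at least 77.6-fold; 45.0, 66.0 and 65.9 CPM), Ntng1, a netrin-related membrane protein (at least 57.5-fold; 40.8, 41.0 and 50.7 CPM), and the neighbouring Hox genes Hoxc8 and Hoxc9. Hoxc8 had 997 UMIs in mesoderm against 2, a ratio of 430.0 (95% interval 119 to 3553, counting error only), and Hoxc9 was at least 39.6-fold higher (18.3, 33.3 and 37.3 CPM). The edgeR adjusted p of these 5 genes ranged from 9.15e-10 to 2.77e-06.

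Higher in endothelium were Stab2, a scavenger receptor for hyaluronan known from sinusoidal vessels (at least 118-fold), Oit3 (at least 112-fold; 83.8, 80.9 and 73.4 CPM), the adhesion receptor Adgrl4 (at least 78.9-fold; 40.5, 71.0 and 61.2 CPM), Clec1b, the podoplanin receptor of platelets (at least 77.7-fold; 62.8, 43.8 and 59.1 CPM), and Rasip1, a Ras-interacting protein of vessel lumen formation. Stab2 was uneven, with 34, 189 and 81 UMIs in the 3 endothelium sums. Rasip1 measured 210.1, 178 and 176 CPM, with 690 UMIs against 1 in mesoderm. Their edgeR adjusted p ranged from 3.13e-11 to 4.36e-05.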
